A study of Rattus norvegicus with 16 samples.

Results

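The genes of the proteasome, the barrel-shaped protease that degrades ubiquitin-tagged proteins, were read out of a time course of rat cortex after traumatic brain injury. Members were all genes whose only symbol in the array annotation begins with Psma, Psmb, Psmc, Psmd, Psme, Psmf or Psmg, and 46 of the 14218 genes measured met this rule. Of these, 44 encode proteasome subunits, regulators or assembly factors. The other two, Psmc3ip and Psme3ip1, share the prefix but encode other proteins. Probe sets of a gene were averaged, 37 members resting on 1 probe set and 9 on several. Psmb6, the constitutive beta1 subunit, and Psme3, the PA28 gamma regulator, are not among the members, because their probe sets (1 and 4) carry more than 1 symbol. For the same reason 1 further probe set of Psma3 was left out.

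All rats were male Wistar animals of 8 weeks. Each had a craniectomy over the right parietal cortex, with an adapter fixed to the skull, 48 h before the procedure. Injured rats then received a moderate lateral fluid percussion, a pulse of 3.3 atm of saline against the dura, and shams went through the same surgery without the pulse. The brains were perfused with saline, and polyadenylated RNA of the cortex at the contusion site, or its counterpart in shams, was hybridised to 16 Affymetrix arrays. Injured cortex gave 3 arrays each at 3, 6, 12 and 48 h. The 3, 6 and 12 h shams, 1 array each, form the early sham group of 3 arrays that the study's description sets against the first 3 times, and a single 48 h sham is the control it names for 48 h. Whether arrays share animals or were processed together is not in the labels, so p-values measure only the spread between these arrays. In whole tissue, more cells of a type and more RNA per cell cannot be told apart.

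The 20S core of the proteasome is a stack of alpha and beta rings, with the cleaving sites on beta1, beta2 and beta5. Under interferon, cells make the alternative catalytic subunits Psmb9 (beta1i), Psmb10 (beta2i) and Psmb8 (beta5i), which enter newly built cores in place of the constitutive beta1, beta2 and beta5 (Psmb6, Psmb7 and Psmb5) and give the immunoproteasome, known for making peptides for MHC class I. Psme1 and Psme2 encode PA28 alpha and beta, a cap that opens the core without ATP. The 19S cap, with its Psmc ATPases and Psmd non-ATPases, unfolds ubiquitinated proteins and feeds them into the core. Microglia, macrophages and other leukocytes are known to carry more immunoproteasome than neurons.

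The promoters of the 5 interferon-inducible members are shown because these are the members known to be induced by interferon. The windows, from RefSeq on build GRCr8, run from 250 bases before to 50 after 1 annotated start of the gene (the outermost gene boundary in the same annotation can lie further upstream) and are printed 5′ to 3′ on the gene's own strand. They lie at chr20:4656982-4657281 (minus strand, Psmb8), chr19:50743243-50743542 (minus strand, Psmb10), chr15:33052702-33053001 (minus strand, Psme2), chr20:4668750-4669049 (plus strand, Psmb9) and chr15:33038721-33039020 (plus strand, Psme1). Capitals mark matches, on either strand, to the core of the interferon-stimulated response element, which reads GAAA, 2 bases of any kind and GAAA.
Psmb8: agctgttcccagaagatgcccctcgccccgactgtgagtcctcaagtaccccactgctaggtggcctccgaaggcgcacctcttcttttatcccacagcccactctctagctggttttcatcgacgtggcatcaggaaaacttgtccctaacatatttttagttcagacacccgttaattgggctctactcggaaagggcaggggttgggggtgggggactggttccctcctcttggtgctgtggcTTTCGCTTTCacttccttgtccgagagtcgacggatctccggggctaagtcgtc
Psmb10: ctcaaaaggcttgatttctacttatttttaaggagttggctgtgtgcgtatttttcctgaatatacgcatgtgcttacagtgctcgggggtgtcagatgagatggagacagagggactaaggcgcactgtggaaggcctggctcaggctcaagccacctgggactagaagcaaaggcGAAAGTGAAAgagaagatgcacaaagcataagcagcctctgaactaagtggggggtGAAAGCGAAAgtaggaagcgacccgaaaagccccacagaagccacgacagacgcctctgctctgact
Psme2: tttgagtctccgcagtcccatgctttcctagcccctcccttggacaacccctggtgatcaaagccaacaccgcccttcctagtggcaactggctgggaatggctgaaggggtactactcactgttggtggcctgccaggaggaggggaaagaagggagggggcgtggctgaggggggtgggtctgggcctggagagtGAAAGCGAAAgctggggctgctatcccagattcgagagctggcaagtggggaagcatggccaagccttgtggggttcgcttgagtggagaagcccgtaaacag
Psmb9: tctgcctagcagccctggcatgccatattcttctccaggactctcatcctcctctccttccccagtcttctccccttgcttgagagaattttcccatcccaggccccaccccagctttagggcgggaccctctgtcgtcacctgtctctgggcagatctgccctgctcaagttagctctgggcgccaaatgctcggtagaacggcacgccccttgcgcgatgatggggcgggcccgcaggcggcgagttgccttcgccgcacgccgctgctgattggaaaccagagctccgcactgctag
Psme1: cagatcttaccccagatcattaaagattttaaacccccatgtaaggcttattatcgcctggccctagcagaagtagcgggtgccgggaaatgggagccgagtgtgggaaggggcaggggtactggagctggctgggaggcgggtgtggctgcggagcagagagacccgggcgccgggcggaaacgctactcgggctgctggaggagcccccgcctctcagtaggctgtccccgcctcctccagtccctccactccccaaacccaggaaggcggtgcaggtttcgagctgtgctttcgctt

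The core motif was found in 3 of these 5 windows, with 2 matches in Psmb10 and 1 each in Psmb8 and Psme2. It was found in 3.92% of the 33469 rat promoter windows of the same length. Of the 46 members, 42 had a window, and the other members with a match were Psma4, Psmb3, Psmd7 and Psmg4. The same 10 letters, GAAAGCGAAA on one strand or the other, stood in Psmb8, Psmb10 and Psme2. That exact word, a case of the core motif picked out after the matches were seen, occurred in 24 of the 33469 windows (0.0717%). Counting that start as base 0, it lies at bases -4 to 5 in the Psmb8 window, in Psmb10 bases -17 to -8 and in Psme2 bases -53 to -44.

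Other motifs were searched on both strands as well. TTCNNNGAA, the GAS element, occurred in Psmb8, Psmc6, Psmd3 and Psmd7, against 8.87% of all windows. TGACNNNGC, the antioxidant core used by Nfe2l1 and Nfe2l2, occurred in 7 of the 42 member windows, Psma3, Psmb2, Psmb5, Psmd1, Psmd3, Psmd9 and Psme4, against 12.1% of all. The NF-kB consensus occurred in Psmb2, Psmc3ip, Psmd11, Psmd13 and Psme4, against 7.51%, and the canonical kB word of the kappa light chain enhancer, which is 1 case of it, in 0 member windows, against 0.111%. None of the motifs searched was found in full in the Psmb9 and Psme1 windows, which says only that these letters are not there. GAAAGCGAAA reads TTTCGCTTTC on the other strand, and the Psme1 window ends in tttcgctt. A match running over that edge could not be found by this search. On the chromosomes, Psmb8 and Psmb9 alternate with the peptide transporter genes Tap2 and Tap1 (in the order Tap2, Psmb8, Tap1, Psmb9), and Psme1 and Psme2 lie close to the interferon factor gene Irf9.

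Values are log2 intensities from which each probe set's median over the 16 arrays has been taken, so 0 is a gene's own middle level. They can be compared between arrays but not between genes, and they do not show whether a gene, or a marker of the tissue, was detected. Over all genes, the widest spread was that of replicate 2 of injured 48 h (SD 0.387), followed by replicate 2 of injured 12 h (SD 0.372). The latter also stood apart in its polyA control RNAs, added before labelling, which averaged -1.69 over 24 probe sets against -0.181 to 0.495 in the other 15 arrays. Its hybridization controls averaged -0.0867, inside the range of the others (-0.333 to 0.22). The beta-actin and GAPDH controls differed between 3′ and 5′ ends by -0.15 to 0.16 and by -0.05 to 0.07, and no arrays were duplicates of each other.

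**Figure D1:**
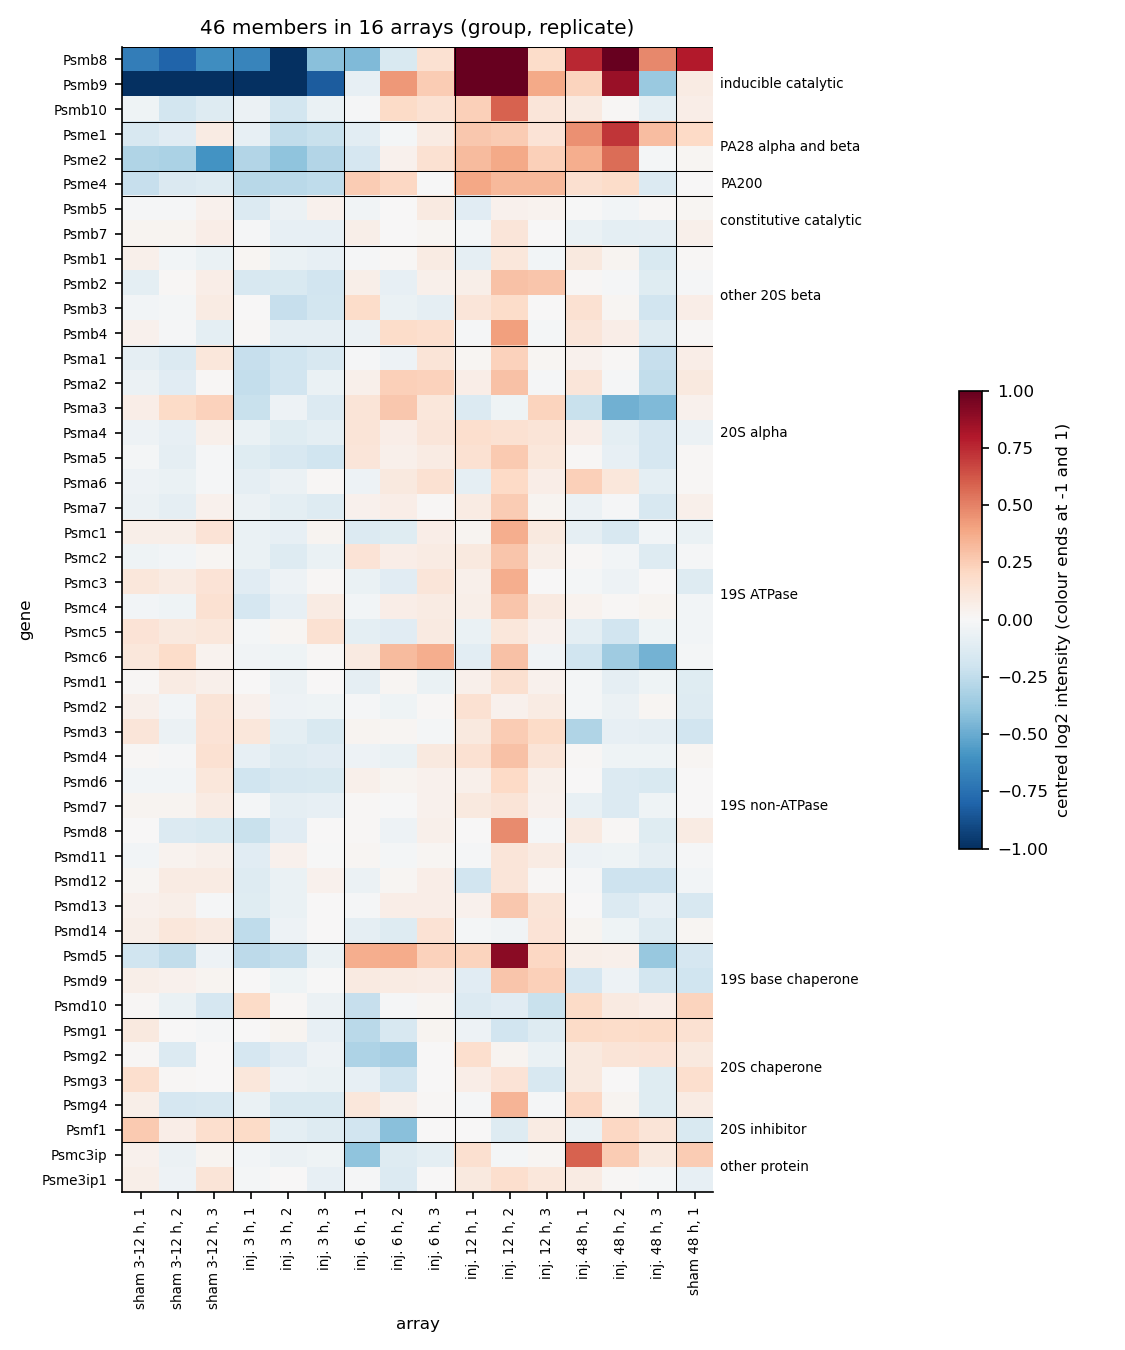
Centred log2 intensity of the 46 members (rows, grouped by role) in the 16 arrays (columns, by group and replicate); colours end at -1 and 1, so larger values look alike. Psmb8 and Psmb9 are blue in the 3 early shams and dark red in 2 of the 3 arrays at 12 h (replicate 3 is paler, at 0.18 and 0.38), while most rows of the 20S and 19S stay pale, apart from a red column in injured 12 h replicate 2.

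Members fell into a few strongly varying genes and a steady majority. Psmb9 had an SD over the 16 arrays of 1.16, higher than that of 99.5% of all genes, and Psmb8 had 0.867. Psme2 (0.334), Psmd5 (0.326), Psme1 (0.263), Psme4 (0.236), Psma3 (0.230) and Psmc6 (0.228) came next. The 30 constitutive subunits of the 20S core and the 19S cap had SDs from 0.0596 to 0.23, with a median of 0.11 against 0.151 for all genes. In the account that follows, called means an adjusted p under 0.05 in limma (Benjamini-Hochberg over all 14218 genes), and ± gives the standard error (SE).

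Psmb9, the inducible beta1i, had the largest difference of the 46 members at 6, 12 and 48 h against the early shams, which all these comparisons share. In the early shams it stood at -1.90, -2.17 and -1.87, and at 3 h at -1.55, -1.95 and -0.83, so that these groups overlapped. At 6 h the arrays read -0.08, 0.43 and 0.25, at 12 h 1.17, 1.11 and 0.38, and at 48 h 0.22, 0.86 and -0.37. Every injured array from 6 h on lay above every early sham and every 3 h array. Psmb9 was 4.53-fold higher at 6 h (log2 2.18 ± 0.315, adjusted p = 0.00162) and 7.29-fold higher at 12 h (log2 2.87 ± 0.315, adjusted p = 0.000214), where it ranked 25 of the 14218 genes by rise. At 3 h its difference was 0.54 ± 0.315 (adjusted p = 0.654). The call at 12 h held in all 15 alternatives. The call at 6 h was lost with all 4 shams as control (1.67, adjusted p = 0.0643) and with the 6 h sham alone (2.37, adjusted p = 0.067).

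Psmb9 was the single member called at 6 h, 1 of 46, which is close to the 1.98% of all genes called higher there. Averaged over 3, 6 and 12 h it was again the single member called (1.86 ± 0.257, adjusted p = 0.00123), against 2.08% of all genes called higher, and with all 4 shams as control 0 members were. Within injured cortex it rose from 3 to 6 h by 1.64 ± 0.315 (adjusted p = 0.0246). In that step 2 of 46 members were called higher, against 0.795% of all genes, the other being Psme4. The step call for Psmb9 did not hold without injured 3 h replicate 1 (adjusted p = 0.121) or 2 (0.117), or without injured 6 h replicate 2 (0.135) or 3 (0.0814).

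Psmb8, the inducible beta5i, was first called at 12 h. Its early shams read -0.69, -0.80 and -0.62, its 3 h arrays -0.66, -1.04 and -0.42, and its 6 h arrays -0.44, -0.15 and 0.15. At 12 h it stood at 1.18, 1.01 and 0.18, and at 48 h at 0.75, 2.04 and 0.48, so all 12 and 48 h arrays lay above all early shams. Psmb8 was 2.82-fold higher at 12 h (log2 1.49 ± 0.342, adjusted p = 0.0226), whereas the 6 h difference of 0.56 ± 0.342 did not pass (adjusted p = 0.5). Whether its course differed from that of Psmb9 was not tested. The 12 h call was lost without injured 12 h replicate 1 (1.30, adjusted p = 0.0640) or 2 (1.38, 0.0964) and without the 3, 6 or 12 h sham (1.45 to 1.54, adjusted p 0.0537 to 0.0865).

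Psmb10, the inducible beta2i, had the smallest 12 h difference of the 3 inducible catalytic subunits. Its early shams stood at -0.04, -0.18 and -0.13 and its 12 h arrays at 0.24, 0.59 and 0.12, without overlap. The 12 h difference was 0.43 ± 0.107 (1.35-fold, adjusted p = 0.0322), and at 48 h the arrays were back at 0.09, 0.01 and -0.10. The highest value came from injured 12 h replicate 2. Without that array the difference was 0.30 (adjusted p = 0.115), and without the 3, 6 or 12 h sham the adjusted p was 0.0610, 0.125 and 0.0784.

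Psme2, the beta subunit of the PA28 cap, was called at 12 h and, against the early shams, at 48 h. Early shams stood at -0.30, -0.32 and -0.60, injured arrays at 12 h at 0.32, 0.38 and 0.24, and at 48 h at 0.36, 0.56 and -0.02. No 12 or 48 h array overlapped the early shams. Psme2 rose 1.65-fold at 12 h (log2 0.72 ± 0.132, adjusted p = 0.00666), and the 6 h difference of 0.41 ± 0.132 did not pass (adjusted p = 0.132). With the 12 h sham alone as control the 12 h difference was 0.91 (adjusted p = 0.0603).

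Psme1, the alpha subunit, was read differently by its 2 probe sets. Averaged, its early shams stood at -0.16, -0.11 and 0.08, its 12 h arrays at 0.27, 0.25 and 0.14, and its 48 h arrays at 0.46, 0.72 and 0.30. The 12 h difference was 0.28 ± 0.103 (adjusted p = 0.143). One probe set gave 0.66 at 12 h and 1.14 at 48 h against the early shams, the other -0.10 and -0.03. Tested by itself, the first passed at 12 h (0.66 ± 0.146, adjusted p = 0.0222).

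Psme4 encodes PA200, a single-chain activator of the core known from DNA repair and sperm development. It stood at -0.23, -0.15 and -0.13 in the early shams, at -0.28, -0.27 and -0.25 at 3 h, at 0.25, 0.20 and -0.01 at 6 h and at 0.39, 0.33 and 0.32 at 12 h. All 12 h arrays lay above all arrays of the first 2 groups. Psme4 rose 1.43-fold at 12 h (log2 0.51 ± 0.0897, adjusted p = 0.00505), with its 3 probe sets at 0.69, 0.39 and 0.46, and this call held when any single array was left out. With the 12 h sham alone as control it did not pass (0.47, adjusted p = 0.222). Its step from 3 to 6 h was 0.41 ± 0.0897 (adjusted p = 0.0433), a call that held without injured 6 h replicate 3 and was lost without each of the other 5 arrays of the step (adjusted p 0.0785 to 0.178).

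Psmd5, a chaperone that helps assemble the base of the 19S cap, was the remaining member called at 12 h. Its early shams read -0.20, -0.25 and -0.05 and its 12 h arrays 0.22, 0.90 and 0.21. The difference was 0.61 ± 0.164 (adjusted p = 0.0484), with the highest array again replicate 2. Without that array it was 0.38 (adjusted p = 0.158), and without the 3, 6 or 12 h sham the adjusted p was 0.142, 0.160 and 0.0695. At 6 h Psmd5 stood at 0.36, 0.37 and 0.23, above all early shams, at a difference of 0.49 ± 0.164 that did not pass (adjusted p = 0.159).

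In all, 6 of 46 members were called higher at 12 h and 0 lower, against 3.49% of all genes called higher. They were Psmb8, Psmb9, Psmb10, Psme2, Psme4 and Psmd5, so 4 of the 5 inducible and PA28 members were among them and 2 of the other 39 proteasome genes. The median difference at 12 h was 0.72 over the 5, 0.09 over the 30 constitutive subunits and -0.02 over all genes. The count was 3 without injured 12 h replicate 2 and 3 without the 3 h, the 6 h or the 12 h sham. With the 12 h sham as the single control it was 1.

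**Figure D2:**
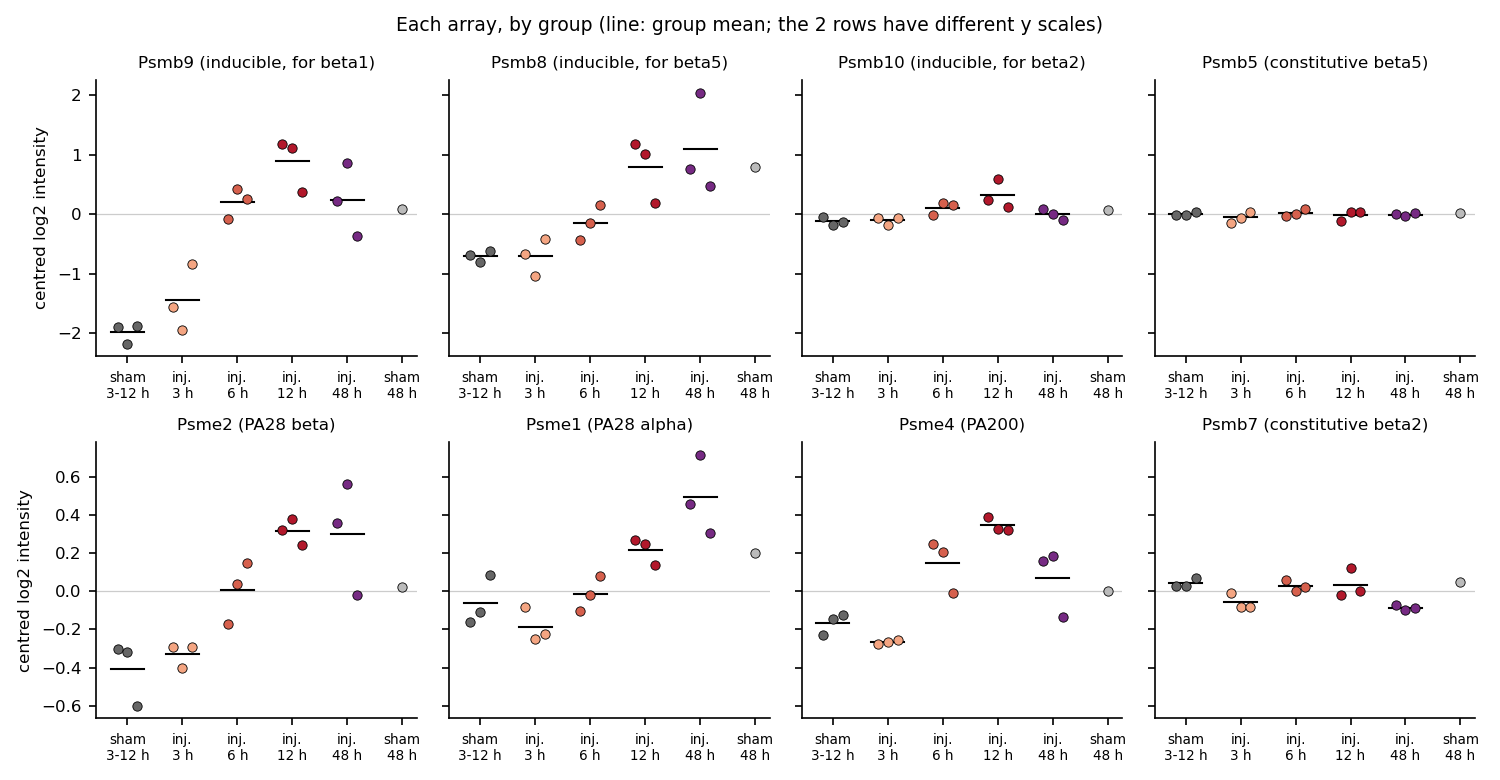
Centred log2 intensity (y axis) of 8 members in each array, by group (x axis); points are arrays and lines group means, and the upper and lower rows have different y scales. Psmb9 and Psmb8 lie above all early shams at 12 and 48 h, and the 48 h sham lies with the 48 h injured arrays, while Psmb5 and Psmb7 stay near 0.

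The constitutive catalytic subunits Psmb5 and Psmb7 did not pass in any comparison. Psmb5 (beta5) stayed between -0.14 and 0.09 in all 16 arrays and Psmb7 (beta2) between -0.10 and 0.12, and at 12 h they differed from the early shams by -0.02 and -0.01. Psmb8 and Psmb10 were each set against the constitutive subunit they replace by taking the difference within an array. This could not be done for Psmb9, because Psmb6 is not among the members. Psmb8 minus Psmb5 averaged -0.71 ± 0.0696 (SD, n = 3) in the early shams and -0.01 ± 0.730 (SD, n = 9) over the injured arrays of 3 to 12 h. The shift was 0.70 (exact 2-sided permutation test, p = 0.0818, adjusted over both pairs 0.0818).

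For Psmb10 minus Psmb7 the sham mean was -0.16 ± 0.0781 (SD, n = 3) and the injured mean 0.11 ± 0.184 (SD, n = 9). The shift was 0.27 (exact 2-sided permutation test, p = 0.0273, adjusted 0.0545). The smallest p the design allows is 0.00909, and neither pair passed after adjustment. At 12 h alone the shifts were 1.51 and 0.44, without overlap between the groups, where 3 arrays against 3 cannot go below an exact permutation p of 0.1, the value both reached.

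The 30 constitutive subunits of core and cap moved little. At 3 h, 0 of the 46 members were called by limma, and 3 had an unadjusted p under 0.05, against 0.584% of all genes called and 9.55% with an unadjusted p under 0.05. All 30 constitutive subunits lay below the early shams at 3 h by deposited values, with a median of -0.11 against -0.01 over all genes. After quantile normalization 2 of the 30 lay above, and after median centring 1. The lowest members were Psma3, an alpha ring subunit (-0.30 ± 0.1, adjusted p = 0.304), Psmd14, the deubiquitinase of the 19S lid (-0.19 ± 0.0903, adjusted p = 0.544), and Psmd6, also of the lid (-0.19 ± 0.0693, adjusted p = 0.381). On the other side stood Psmb9 (0.54, but -0.087 after quantile normalization), Psmd10, a base chaperone (0.12 ± 0.0872), and Psme2 (0.08 ± 0.132), none of them called.

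From 3 to 6 h, 27 of the 30 lay higher, with a median of 0.10, and all 13 of the 20S core did. In that step 46.7% of all genes lay higher. At 6 h 42.9% of all genes lay above the early shams. Among core subunits 11 of 13 did (median 0.06), and among cap subunits 6 of 17 (median -0.05). None of these differences passed, and the difference between core and cap was not tested. At 12 h, 23 of 30 were above the early shams and 7 below, and 0 passed, where 45.8% of all genes were above. This pattern leaned on 1 array, since injured 12 h replicate 2 had the highest value of all 16 arrays in 21 of the 30. The mean of the 30 differed from the early shams by 0.0734 at 12 h and by 0.0193 without that array. The low polyA controls of the same array stand beside this, and their part in it was not tested.

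Psmf1, which encodes PI31, an inhibitor of the core, was the lowest member at 6 h (0.26, 0.07 and 0.17 in the early shams against -0.19, -0.42 and 0.00, a difference of -0.37 ± 0.118, adjusted p = 0.135) and at 12 h (-0.18 ± 0.118, adjusted p = 0.419). Psmg2, a chaperone of the alpha ring, differed by -0.17 ± 0.0922 at 6 h and its partner Psmg1 by -0.15 ± 0.0779 at 12 h, neither called. Of the members that are not proteasome genes, Psmc3ip, a recombination factor, stood at -0.21 ± 0.112 at 6 h, and Psme3ip1 was not called in any comparison.

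At 48 h the calls depended on the control. Against the 3 early shams, 4 of 46 members were called higher and 2 lower, close to the shares of all genes, 6.37% higher and 3.32% lower. Psmb9 was 4.65-fold higher (log2 2.22 ± 0.315, adjusted p = 0.00136), Psmb8 3.47-fold (1.79 ± 0.342, adjusted p = 0.00633), Psme2 1.63-fold (0.71 ± 0.132, adjusted p = 0.00564) and Psme1 1.47-fold (0.55 ± 0.103, adjusted p = 0.00564). With only the arrays of these 2 groups in the fit, the calls of Psme2 (adjusted p = 0.0527) and Psme1 (adjusted p = 0.052) were lost. Psmb10 was not among them (0.12 ± 0.107). For Psmb8 and Psme1 the highest array was injured 48 h replicate 2, at 2.04 and 0.72.

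The lower pair at 48 h were Psma3 and Psmc6. Psma3 stood at 0.07, 0.19 and 0.23 in the early shams and at -0.22, -0.48 and -0.44 in injured 48 h cortex, without overlap (-0.54 ± 0.1, adjusted p = 0.00546), a call that held in all 13 alternatives. Psmc6, an ATPase of the 19S base, stood at 0.12, 0.19 and 0.04 against -0.20, -0.35 and -0.47 (-0.46 ± 0.108, adjusted p = 0.0189). Its 3 probe sets gave -0.26, -0.87 and -0.24. The call was lost without injured 48 h replicate 2 (-0.45, adjusted p = 0.0701), the 3 h sham (-0.45, 0.0507) or the 6 h sham (-0.42, 0.0775). The next lowest, Psmc5, did not pass (-0.23 ± 0.0779, adjusted p = 0.0838).

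Against the 48 h sham, the control named by the study, 0 of 46 members were called by limma at 48 h, and 1 had an unadjusted p under 0.05. Of all genes 0% were called and 1061 had an unadjusted p under 0.05. Here the spread between the other arrays stands in for that of the lone 48 h sham. It stood at 0.08 in Psmb9 and 0.79 in Psmb8, inside the range of the injured 48 h arrays for both. The 5 inducible and PA28 members differed by -0.07 to 0.30, the highest being Psmb8 (0.30 ± 0.484), Psme1 (0.29 ± 0.146) and Psme2 (0.28 ± 0.186). By deposited values 4 of the 5 lay above this sham (median 0.28), and after quantile normalization 2 lay above and 3 below (median -0.013). The lowest members were Psma3 (-0.42 ± 0.142, adjusted p = 0.508), Psmc6 (-0.32 ± 0.153) and the alpha ring chaperone Psmg3 (-0.18 ± 0.134).

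The 48 h sham itself stood above the early shams in all 5 inducible and PA28 members. Psmb9 was higher by 2.06 ± 0.445 (adjusted p = 0.285), which ranked 8 of the 14218 genes, and Psmb8 by 1.49 ± 0.484 (adjusted p = 0.566). Psme2 was higher by 0.43 ± 0.186 and Psme1 by 0.26 ± 0.146, and Psmf1 (-0.32 ± 0.167), Psmd3 (-0.26 ± 0.125) and Psmd9 (-0.24 ± 0.124) were lowest. None of these passed: 0 of 46 members were called by limma, against 0.00703% of all genes called. An unadjusted p under 0.05 was found for 4 members. Without the share of all genes at that threshold, this count cannot be set against the background and is not read as a result. With 1 array, sham time and this array cannot be told apart.

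**Figure D3:**
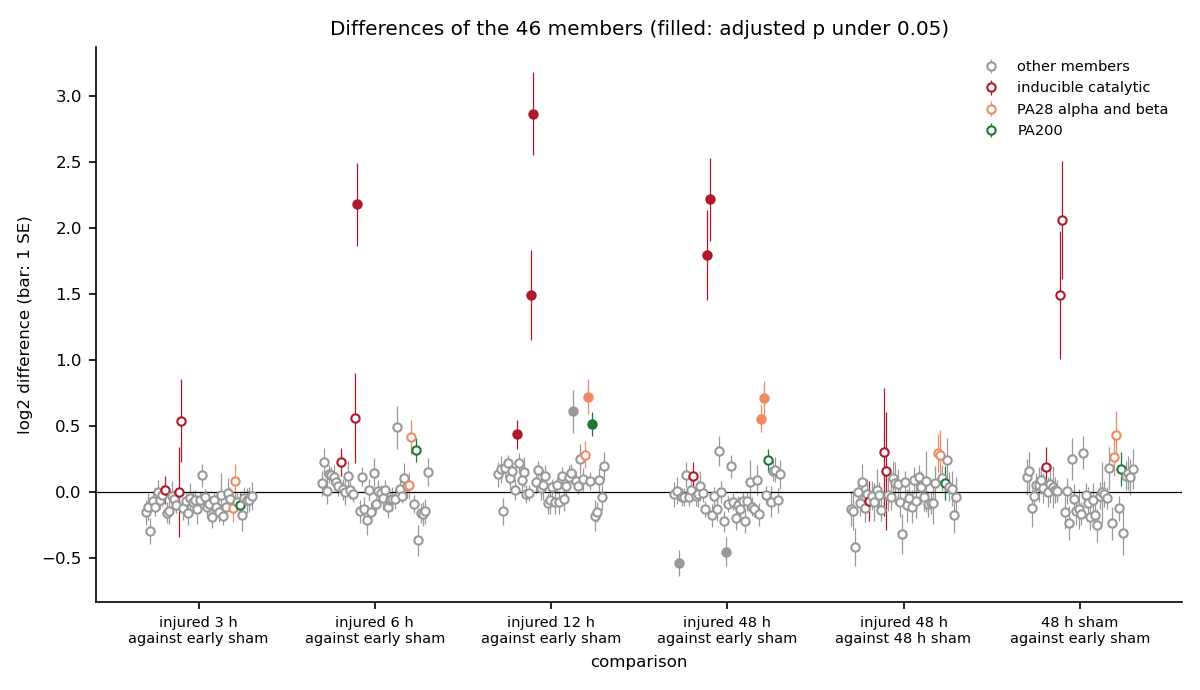
Log2 difference (y axis) of each of the 46 members in the 6 comparisons with sham (x axis); bars are 1 SE and filled points have an adjusted p under 0.05. Psmb9 stands out at 6, 12 and 48 h against the early shams and also in the 48 h sham against them, where it is not called, while no point is filled against the 48 h sham.

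From 6 to 12 h within injured cortex, 0 of 46 members were called by limma, against 0.0141% of all genes called. An unadjusted p under 0.05 was found for 11 members, and the share of all genes at that threshold is not given here. From 12 to 48 h, 7 members were called lower, against 7.14% of all genes, and 2 higher, against 8.19%. The 7 were Psmd5 (-0.53 ± 0.164), Psma3 and Psmc6 (-0.39 each), Psmd3, a lid subunit (-0.34 ± 0.0885), Psma5 (-0.25 ± 0.0671) and Psmb2 (-0.25 ± 0.0784) of the core, and Psma4 (-0.22 ± 0.0693). Adjusted p-values ran from 0.0184 to 0.0497. The 2 called higher were chaperones, Psmg1 (0.31 ± 0.0779, adjusted p = 0.0172), which went from -0.05, -0.19 and -0.13 to 0.19, 0.18 and 0.19, and Psmd10 (0.27 ± 0.0872, adjusted p = 0.0492), which went from -0.14, -0.11 and -0.22 to 0.19, 0.09 and 0.07.

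Of the 30 constitutive subunits, 28 lay lower at 48 than at 12 h, with a median of -0.16 against 0.00 over all genes. The count of 9 called members rested on few arrays. It was 1 without injured 12 h replicate 2, 4, 3 and 5 without injured 48 h replicates 1, 2 and 3, and 0 without injured 12 h and 48 h replicates 2 together. The mean of the 30 fell by 0.169, and by 0.115 without injured 12 h replicate 2. When each time was set against its own control, 0 members were called by limma in the difference between the 48 h and 12 h effects, against 0.204% of all genes. An unadjusted p under 0.05 was found for 5 of the 46 members and 1298 of the 14218 genes. The nearest was Psmb9, whose effect was lower at 48 h by 2.71 (adjusted p = 0.0689).

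Genes that work beside the immunoproteasome were counted on lists. Of 16 measured genes of MHC class I peptide supply and loading, 2 were called higher at 6 h, 2 at 12 h and 3 at 48 h against the early shams, and 0 lower. Of all genes 1.98%, 3.49% and 6.37% were called higher there. Tap1, which carries peptides into the endoplasmic reticulum and lies beside Psmb9, stood at -0.26, -0.36 and -0.20 in the early shams, at 0.45, 0.56 and 0.44 at 6 h and at 0.80, 0.58 and 0.58 at 12 h. It rose by 0.75 ± 0.104 at 6 h (adjusted p = 0.0011) and 0.93 ± 0.104 at 12 h (adjusted p = 0.000218), then fell from 12 to 48 h by 0.71 (adjusted p = 0.000787), to -0.08, 0.10 and -0.19. In the same step Psmb9 changed by -0.65 ± 0.315 and Psmb8 by 0.30 ± 0.342, neither called.

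Other genes of this list had courses of their own. Nlrc5, a transactivator of MHC class I genes, was higher at 6 h by 0.69 ± 0.148 (adjusted p = 0.0218). B2m, the light chain of MHC class I, rose by 0.54 ± 0.0734 at 12 h and by 0.69 ± 0.0734 at 48 h against the early shams. Erap1, which trims peptides, was higher at 48 h by 0.72 ± 0.161, and the chaperone Calr by 0.53 ± 0.109, both against the early shams. Against the 48 h sham 0 of the 16 genes were called at 48 h by limma, and that sham itself stood above the early shams by 0.45 in Erap1, 0.35 in Calr and 0.25 in B2m, none of them called. Over the 16 genes the 48 h sham differed from the early shams by -0.26 to 2.89, with 0 called. The median of the list at 12 h was 0.24, against -0.02 over all genes.

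Of 13 measured interferon regulators, 2 were called higher at 3 h, 3 at 6 h, 7 at 12 h and 2 at 48 h against the early shams. Of all genes 0.485%, 1.98%, 3.49% and 6.37% were called higher at these times. Irf1, a factor known to drive immunoproteasome genes, stood at -1.88, -1.84 and -1.86 in the early shams and already at -0.18, 0.47 and 1.0 at 3 h, a rise of 2.29 ± 0.336 (adjusted p = 0.00578). It was 2.81 ± 0.336 higher at 12 h and fell from 12 to 48 h by 1.98 (adjusted p = 0.00194). Irf9, the DNA-binding part of the complex that type I interferon activates, rose by 1.13 ± 0.199 at 6 h and by 1.76 ± 0.199 at 12 h, and Irf7, a driver of type I interferon, by 0.77 ± 0.144 and 1.67 ± 0.144. Ifng, the gene of interferon gamma, stayed between -0.18 and 0.15 in all 16 arrays.

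The proteasome partners outside the symbol rule, 21 measured genes such as shuttles, deubiquitinases and the ubiquitin genes, had 1 gene called higher at 6 h, at 12 h and at 48 h against the early shams, where 1.98%, 3.49% and 6.37% of all genes were. It was Nfe2l2, the NRF2 factor of the oxidative stress response (0.96 ± 0.157, 0.87 ± 0.157 and 0.83 ± 0.157). Nfe2l1, known to drive proteasome genes when the protease is blocked, stood between -0.24 and 0.12 in all 16 arrays. Pomp, the chaperone of core assembly, stood between -0.11 and 0.27. At 48 h against the early shams Ecpas, a proteasome adaptor, was lower by -0.33 ± 0.0759 and Zfand2a by -0.42 ± 0.104, where 3.32% of all genes were lower, and from 12 to 48 h 4 of the 21 fell, Adrm1, Ecpas, Rad23b and Zfand2a, where 7.14% of all genes did. Against the 48 h sham 0 of the 21 partners and 0 of the 13 interferon regulators were called by limma at 48 h.

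Markers of other cell types were read in the same arrays. Of all genes, 0.485% were called higher at 3 h, 1.98% at 6 h and 3.49% at 12 h against the early shams. At 12 h 1.38% were called lower, and at 48 h 6.37% were called higher, against the same shams. From 12 to 48 h 8.19% were called higher and 7.14% lower. The mean of 7 monocyte and macrophage markers was -0.59 to -0.54 in the early shams, -0.20 to 0.50 at 6 h, 0.07 to 0.95 at 12 h and 0.14 to 1.78 at 48 h, and -0.04 in the 48 h sham, and 1 of 7 was called higher at 12 h and 4 at 48 h against the early shams. At 48 h the array highest in this mean, replicate 2, was also highest in Psmb8, Psmb9, Psme1 and Psme2, but not in Psmb10. The same array had the widest spread over all genes (SD 0.387). It was also the highest 48 h array in Tap1, B2m, Irf1 and Irf9, but not in Irf7. The mean of 5 neutrophil markers was -0.61 to -0.27 in the early shams, 1.16 to 2.42 at 6 h, 1.85 to 2.47 at 12 h and -0.19 to 1.34 at 48 h. Against the early shams 3 of 5 were called higher at 12 h and 1 at 48 h.

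Microglial markers took another course. Their mean over 7 genes was -0.07 to 0.36 in the early shams, -0.67 to -0.34 at 12 h and 1.0 to 1.63 at 48 h, with 3 of 7 called lower at 12 h and 5 higher at 48 h against the early shams. T and NK cell markers had 0 of 11 genes called at 12 and at 48 h, with means from -0.07 to 0.16 over the injured arrays, and B cell markers 0 of 2. Neuron markers were at 0.11 to 0.20 in the early shams and -0.12 to -0.06 at 12 h, with 1 of 9 called lower. Markers of the meninges, 6 genes, had means of 0.24 to 0.83 in the early shams, -1.12 to 0.01 at 12 h, 0.86 to 1.60 at 48 h and 1.44 in the 48 h sham, with 4 of 6 called lower at 12 h and 5 of 6 higher from 12 to 48 h. Of 7 endothelial markers 1 was called higher and 1 lower at 12 h, and 4 higher and 1 lower from 12 to 48 h. Of 7 astrocyte markers 1 was called higher and 2 lower at 12 h, and 3 higher at 48 h against the early shams. Of 2 erythrocyte markers 1, the haemoglobin gene Hbb, was called higher at 3 h (3.40), at 6 h (3.88) and at 12 h (2.53 ± 0.516, adjusted p = 0.0123). Of 5 oligodendrocyte and 3 choroid plexus markers 0 were called at 12 or at 48 h. Against the 48 h sham 0 of these markers were called by limma at 48 h, where 0% of all genes were. The 48 h sham differed from the early shams by medians of 0.39 (microglial), 0.26 (monocyte and macrophage), 0.59 (neutrophil), 0.76 (meninges) and -0.045 (astrocyte), with 0 markers called. The astrocyte markers moved both ways there, from -0.77 in Gjb6 to 1.29 in Gfap. What part the cell makeup of the tissue had in the differences of Psmb8, Psmb9, Psmb10, Psme1 and Psme2 was not tested.

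**Figure D4:**
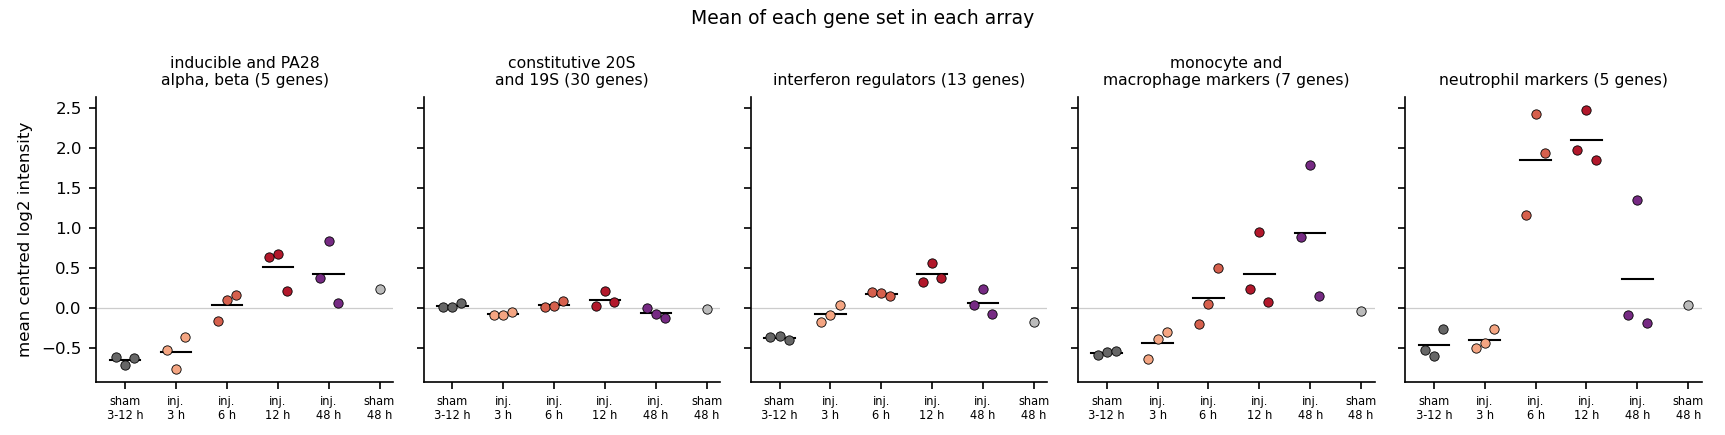
Mean centred log2 intensity (y axis) of 5 gene sets in each array, by group (x axis); points are arrays and lines group means. By group mean, the inducible and PA28 set and the interferon regulators are highest at 12 h. In the inducible and PA28 set the highest single array is injured 48 h replicate 2, and Psmb8 and Psme1 average higher at 48 h than at 12 h. Neutrophil markers are highest at 6 and 12 h and monocyte and macrophage markers at 48 h. The 30 constitutive subunits lie between -0.13 and 0.21 in every array.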

How the data were processed

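The values analysed are the authors' deposited log intensities, taken here as log2 and made with RMA, per the submitters' processing notes (version and log base not given in the sources used here). Each of the 31099 probe sets has a median of 0 over the 16 arrays in the deposited table, so level and detection are not recoverable. The 20832 probe sets with exactly 1 symbol in the array annotation were used, and 436 with several were left out. Symbols were updated by gene identifier for 20764, and probe sets were averaged to 14218 genes.

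One limma 3.58.1 model (R 4.3.3) of 6 groups over 16 arrays, with 10 residual degrees of freedom, was fitted to all genes, with moderated 2-sided tests, Benjamini-Hochberg adjustment over all genes and calls at an adjusted p under 0.05. Pairs of subunits were compared by exact permutation (scipy 1.17.1). Of 3 planned pairs, 2 were run, since the Psmb6 probe set carries 2 symbols. No read depth exists for arrays, and their number limits the precision. Early sham replicates 1, 2 and 3 are the 3, 6 and 12 h shams. On simulated data of 14218 genes, 90% of 100 genes changed by a log2 of 1 and 62% of 100 changed by 0.5 were recovered at 12 h, and 80% and 29% at 48 h against the single sham.

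The members, lists and tests were chosen with earlier results of these data known. Named members were the inducible and PA28 genes, Psmb5 and Psmb7, the up to 6 called members with the largest change each way in each comparison, and the 3 members with the largest difference each way from sham. Further genes were picked with their values in view. The alternatives tried were quantile normalization, median centring, array weights, robust variance, single probe sets, fewer arrays, other shams, a replicate block and leaving out arrays. Promoter windows came from RefSeq (GRCr8), where 42 of 46 members matched.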

Additional observations from a re-analysis of the deposited data

Results flagged for a closer look

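The effect of injury against the early shams differed between successive times in 11 members, by the limma test of the step within injured cortex (both effects share the early shams). From 3 to 6 h it grew in Psmb9 by 1.64 and in Psme4 by 0.41. From 12 to 48 h it changed by -0.53 in Psmd5, -0.39 in Psma3, -0.39 in Psmc6, -0.34 in Psmd3, -0.25 in Psma5, -0.25 in Psmb2 and -0.22 in Psma4, and by 0.31 in Psmg1 and 0.27 in Psmd10. With each time set against its own control, 0 members were called between 12 and 48 h.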

How the results depend on the processing

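Of 558 values of single members under an alternative, 412 kept their direction and side of the threshold, 126 lost the call, 3 gained one and 17 changed sign. The 17 belong to differences that passed under neither setting. At 3 h Psmb9 went from 0.54 to -0.087 with quantile normalization, Psmb8 from -0.0033 to 0.0033 with median centring, and Psmb10 from 0.01 to -0.0038 with array weights. With all 4 shams Psmb10 and Psme2 at 3 h were at -0.033 and -0.027 and Psme1 at 6 h at -0.019, and with the same-time sham Psmb10 and Psme2 at 3 h were at -0.063 and -0.027. When 1 array was left out, these ran from -0.15 to 0.16 in Psmb8, -0.018 to 0.052 in Psmb10 and -0.017 to 0.13 in Psme2 at 3 h, and from -0.0025 to 0.12 in Psme1 at 6 h. Psmb9 at 12 h held in all 15 alternatives, and Psma3, Psmb8 and Psmb9 at 48 h against the early shams held in all 13. Members called at 6 h (1) became 4 with quantile normalization, 4 with array weights, 2 with only the compared arrays and 0 with all 4 shams or the same-time sham. Those called on average over 3 to 12 h (1) became 2, 3, 2 and 0 under the first 4 of these. Those called at 12 h (6) became 1 with the same-time sham and 3 to 6 when 1 array was left out. Those called from 3 to 6 h (2) became 5 with quantile normalization, 12 with array weights, 0 with the 12 injured arrays alone and 0 to 1 when 1 array was left out. Those called from 12 to 48 h (9) became 2 with quantile normalization, 1 with array weights, 0 with only the compared arrays, 5 with the 12 injured arrays, 0 without both arrays of widest spread and 1 to 10 when 1 array was left out. The cause was not tested.

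With the 48 h arrays added, Psmb8 minus Psmb5 shifted by 0.98 (exact permutation, adjusted p = 0.0396) and Psmb10 minus Psmb7 by 0.26 (exact permutation, adjusted p = 0.0264). When 1 array was left out they shifted by 0.54 to 0.83 and by 0.22 to 0.31 (exact permutation, adjusted p 0.0242 to 0.218 for both). The pair Psmb9 minus Psmb6 could not be run.

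With the replicate number as a block in the 12 injured arrays, 0 members were called from 3 to 6 h and 1 from 12 to 48 h. Whether the numbers pair the arrays is not known. Of 18 same-numbered pairs, 3 deviated together at a correlation over 0.1 (range -0.188 to 0.257). Between 12 and 48 h the same-numbered pairs were at 0.0895, 0.193 and 0.189, and the differently numbered pairs at -0.175 to -0.0068. Deviations from means of 3 arrays lean to negative correlations, so these values cannot decide it. The 2 alternatives without the arrays of widest spread and with each time's own control were chosen after the data were seen. With 1 array, the 48 h sham limits every statement on 48 h, and centred values limit all statements to differences.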
